A study of Mus musculus with 12 samples.

Results

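RNA from Mphosph8-null mouse embryonic stem (ES) cells (MP8) was compared with RNA from wild-type cells (WT), both of the strain C57BL/6. The comparison used 6 of the 12 libraries of the series, 3 of MP8 and 3 of WT, chosen by the genotype label. The other libraries were 3 from Tasor-null cells (Tas) and 3 from Pphln1-null cells (Pph) of the same strain, and they are used to show where MP8 differed from its sister mutants. No drug treatment, time course, transgene or culture medium is given for any group, and no allele is described beyond the gene that was lost. Nothing says whether the libraries of 1 genotype were independent cultures or derived from several clones, so each p-value reflects library-to-library spread only, which may be technical. How the null lines were made is not given either, so what was changed by the loss of the gene and what already differed between the lines cannot be told apart.

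Mphosph8 encodes MPP8, a chromodomain protein that binds histone H3 methylated on lysine 9. Together with TASOR and periphilin (the Pphln1 product) it forms the HUSH complex, which represses newly integrated retroviruses, LINE-1 elements, intronless transgenes and retrocopies of genes. HUSH works with the H3K9 methyltransferase SETDB1 and the compacting ATPase MORC2, and it has been linked to the NEXT complex, which feeds nuclear RNA to the exosome for decay. ES cells depend on a transcription factor network around Oct4 (Pou5f1), Sox2 and Nanog, and the naive state adds factors such as Klf4, Esrrb and Tfcp2l1.

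The libraries held 19600484, 17918770 and 20015735 estimated counts in MP8 and 21962079, 20392235 and 21648765 in WT. Levels are given in CPM, the usual library-scaled unit for counts with library sizes adjusted by TMM, as mean ± SD of 3 libraries where no single library is named. On a principal component analysis of the 12 libraries, the first component carried 41.1% of the variance and placed MP8 at 51.6 to 55.5 and WT at -65.4 to -59.9. The MP8 libraries resembled each other more than the WT libraries did, with a chi-square per degree of freedom of 2.2 to 2.61 between MP8 libraries, 4.52 to 6.35 between WT libraries and 52.3 to 65.7 between the genotypes. Mitochondrially encoded genes took 1.87 to 1.91% of counts in MP8 and 2.37 to 2.44% in WT. In bulk RNA, fewer cells that use a gene and less of its RNA per cell cannot be told apart.

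Mphosph8 itself (ENSMUSG00000079184, on chromosome 14) had 14, 3 and 1 counts in MP8, against 2397, 2352 and 2408 in WT. That is 0.705, 0.165 and 0.0494 CPM in MP8 and 110, 117 and 113 CPM in WT, with no overlap. The fitted change was -8.49 ± 0.15 on the log2 scale (SE; edgeR adjusted p = 3.43e-18) and -10 without MP8 replicate 1. The transcript was present at 97.4 ± 3.01 CPM in Tas and 94.1 ± 3.14 CPM in Pph, so the loss went with the MP8 label.

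Of 11 tested genes of the HUSH complex and its partners, 8 rose in MP8 and 2 fell, Mphosph8 among them. Resf1, a partner of SETDB1 in retroelement silencing, had 297, 310 and 301 CPM in MP8 and 165, 177 and 170 CPM in WT, a change of 0.82 ± 0.04 on the log2 scale. Atf7ip2, a relative of the SETDB1 cofactor Atf7ip, had 80.8, 84.5 and 77.8 CPM in MP8 and 34.7, 36.0 and 34.4 CPM in WT (1.21 ± 0.06). Neither set of libraries overlapped. Smaller rises were found for Morc2a (0.38), Tasor (0.34), Pphln1 (0.32), Tasor2 (0.23) and Zfp638 (0.17), so the RNA of the other 2 HUSH subunits was not reduced. Trim28, the corepressor recruited by KRAB zinc finger proteins, fell by 0.20 on the log2 scale. Setdb1 averaged 189 ± 6.06 CPM in MP8 and 192 ± 2.98 CPM in WT (log2 fold change -0.02 ± 0.03, adjusted p = 0.554).

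Across 16840 tested genes, 5058 were higher in MP8 (30% of those tested) and 5419 lower (32.2%) at an adjusted p below 0.05 in edgeR's quasi-likelihood test with Benjamini-Hochberg adjustment. At 2-fold or more, 1677 genes (9.96%) were higher and 737 (4.38%) lower. The 3 MP8 libraries all lay above the 3 WT libraries in 31.9% of tested genes and below them in 34.1%. A gene said here to rise or fall passed this test. With changes this widespread, a gene list is read below against these shares and against the median log2 fold change of all tested genes, -0.016.

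The largest rises included a chemosensory receptor, X-linked germline genes and a few metabolic and signalling genes. Or2ak5, an olfactory receptor gene, had 7.05, 7.86 and 8 CPM in MP8, against 0.0459, 0 and 0.047 CPM in WT, where it had 2 counts in all. The ratio of the scaled sums was 241, with a counting interval of 66.4 to 1997. Xlr3c, of a family of X-linked lymphocyte-regulated genes used in germ cells, had 62.2, 65.1 and 61.2 CPM in MP8 and 0.368, 0.595 and 0.706 CPM in WT (6.81 ± 0.13). In both genes the MP8 libraries lay far above every WT library and close to each other.

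Cox7b2, a testis-type subunit of cytochrome c oxidase, had 18.1, 17.7 and 19 CPM in MP8 and 0.322, 0.347 and 0.329 CPM in WT (5.76 ± 0.16). Cd36, a fatty acid and lipoprotein receptor of the plasma membrane, had 64.5, 72.3 and 68.1 CPM in MP8 and 1.65, 2.68 and 1.22 CPM in WT (5.21 ± 0.17). Rhoj, a Cdc42-related small GTPase best known from endothelial cells, had 27, 26.1 and 29.8 CPM in MP8 and 0.919, 0.694 and 0.659 CPM in WT (5.17 ± 0.14). All 3 were separated from WT in every library. Other rises of this size were those of Pde1a, a calcium and calmodulin-dependent phosphodiesterase (65.9 ± 3.79 CPM in MP8, 2 ± 0.948 in WT), and Ndufb11b (24.9 ± 0.807 CPM in MP8, 0.715 ± 0.335 in WT).

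Strong falls included Lrrc31, a glucose transporter gene and a cell adhesion gene of the epithelial brush border. Lrrc31 had 0.453, 0.77 and 0.74 CPM in MP8 and 7.95, 9.62 and 8.52 CPM in WT (-3.72 ± 0.23). Slc2a3, the high-affinity glucose transporter GLUT3, had 73.7, 69.4 and 65.9 CPM in MP8 and 398, 422 and 400 CPM in WT (-2.55 ± 0.04). Every MP8 library lay below every WT library for both genes. Ceacam20, a cell adhesion molecule of epithelial brush borders, had 0, 0 and 2 counts in MP8 and 18, 29 and 25 in WT, a ratio of scaled sums of 0.0301. Its fitted change was -4.83, and -7.51 without MP8 replicate 3, the one MP8 library with counts.

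**Figure D1:**
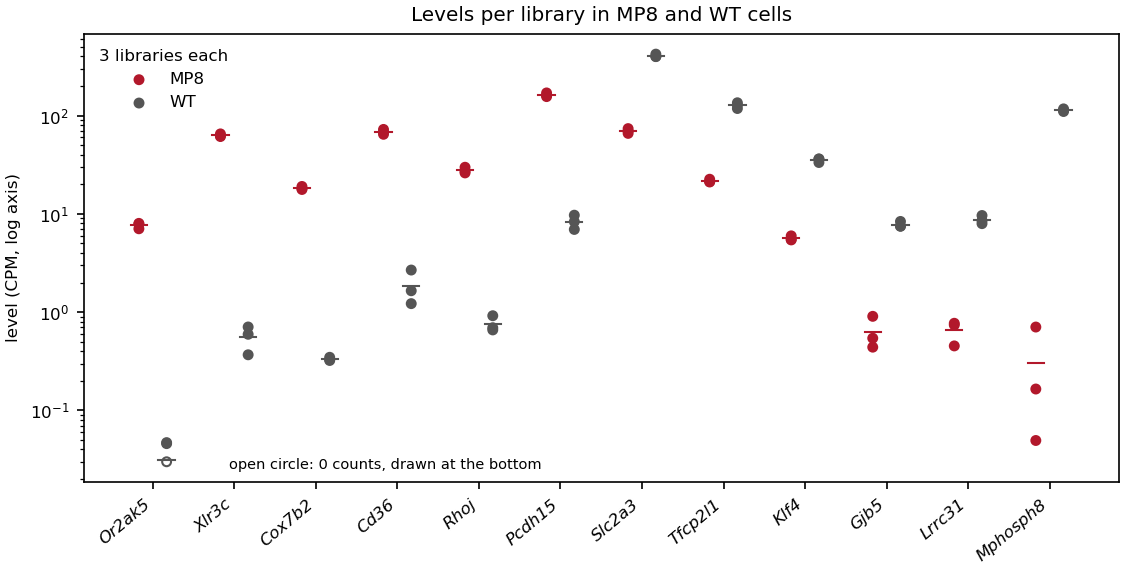
CPM on a log axis for 12 genes in each of the 3 MP8 libraries (left) and the 3 WT libraries (right); short lines mark the means, and an open circle marks a library with 0 counts. The spread within a genotype is small beside the gap between them, as for Xlr3c (61.2 to 65.1 CPM in MP8, 0.368 to 0.706 in WT) and Slc2a3 (65.9 to 73.7 in MP8, 398 to 422 in WT).

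The start sites of the strongly changed genes differed in base composition from those of other genes. RefSeq windows of 300 bases, from 250 before to 50 after each start on build GRCm38.p6, were found for 11766 tested genes (15023 windows). These included 846 of the 1677 genes at least 2-fold higher in MP8 and 503 of the 737 at least 2-fold lower. The 1060 windows of genes at least 2-fold higher in MP8 held a median of 9 CG dinucleotides, the 648 windows of genes at least 2-fold lower held 10, and the 13315 windows of other tested genes held 20. Windows with at most 5 CG made up 34.1% of the first set, 29.3% of the second and 12.2% of the third. Among genes that averaged 5 CPM or more these shares were 34.5%, 19.4% and 8.92%. That average includes MP8, so a gene low in WT could enter the higher set through its rise in MP8. The letters TATAAA on either strand occurred in 14.1% of windows of the higher genes, 9.72% of the lower and 6.94% of the others, and in 7.56% of all windows.

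The windows of 4 genes show this range, with each CG in capitals. Taar7d, a trace amine receptor gene (chr10:24026972-24027271, plus strand), and Cd36 (chr5:17835847-17836146, minus strand) rose and held 0 and 3 CG. Cox7b2 (chr5:71548156-71548455, minus strand) rose and held 10 CG and a TATAAA. Klf4 (chr4:55532426-55532725, minus strand), a naive pluripotency factor, fell and held 40 CG. A match of letters is a description of the window and shows no binding.
Taar7d: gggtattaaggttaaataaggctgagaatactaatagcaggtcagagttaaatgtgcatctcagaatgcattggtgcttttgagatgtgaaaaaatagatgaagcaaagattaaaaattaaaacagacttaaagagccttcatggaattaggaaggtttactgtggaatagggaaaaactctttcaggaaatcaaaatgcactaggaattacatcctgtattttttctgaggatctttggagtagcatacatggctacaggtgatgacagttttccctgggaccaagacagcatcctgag
Cd36: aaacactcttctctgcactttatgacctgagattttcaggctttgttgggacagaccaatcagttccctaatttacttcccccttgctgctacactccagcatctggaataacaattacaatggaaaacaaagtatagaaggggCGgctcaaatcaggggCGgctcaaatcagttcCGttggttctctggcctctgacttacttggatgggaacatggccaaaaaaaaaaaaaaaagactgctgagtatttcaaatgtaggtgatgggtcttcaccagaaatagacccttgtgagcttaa
Cox7b2: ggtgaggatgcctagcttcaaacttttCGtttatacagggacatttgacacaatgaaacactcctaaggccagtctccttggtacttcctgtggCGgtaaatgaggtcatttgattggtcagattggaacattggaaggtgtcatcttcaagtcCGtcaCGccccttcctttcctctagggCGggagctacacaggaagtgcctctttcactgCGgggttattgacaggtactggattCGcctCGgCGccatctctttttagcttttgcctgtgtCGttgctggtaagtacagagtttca
Klf4: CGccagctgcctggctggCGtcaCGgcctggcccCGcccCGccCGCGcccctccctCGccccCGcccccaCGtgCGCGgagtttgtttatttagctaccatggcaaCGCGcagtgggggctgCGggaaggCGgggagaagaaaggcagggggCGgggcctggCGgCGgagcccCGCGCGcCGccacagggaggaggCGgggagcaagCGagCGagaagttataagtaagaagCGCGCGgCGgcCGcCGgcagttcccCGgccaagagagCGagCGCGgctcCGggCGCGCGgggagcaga

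The share of genes that rose in MP8 was larger among genes that span long stretches of the genome. Among 14364 tested protein-coding genes matched to the GENCODE M21 annotation, the share at least 2-fold higher in MP8 was 5.51% for spans up to 10 kb, 4.22% for 10 to 30 kb, 5.48% for 30 to 100 kb, 12.2% for 100 to 300 kb and 38.8% (169 of 436) over 300 kb. The share at least 2-fold lower moved the other way, at 5.74%, 4.2%, 3.82%, 3.94% and 2.06%. Beyond 300 kb the rising share went on, at 30.2% of 262 genes up to 500 kb, 47.7% of 130 genes up to 1000 kb and 63.6% of 44 genes above that, where the median log2 fold change was 2.18. Genes over 300 kb made up 92 of the 227 protein-coding genes that were at least 8-fold higher. This grouping by span was made after the values had been seen and is a description.

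The 169 long genes lay on 20 chromosomes. In 168 of them the MP8 libraries all lay above the WT libraries, as in 31.9% of all tested genes. The 169 genes were picked by their rise in these same libraries, so this separation follows in large part from that choice. Their median level was 14.3 CPM in MP8 and 2.2 CPM in WT, while the remaining long genes had medians of 9.01 CPM in MP8 and 9.07 CPM in WT. In WT, 58 of the 169 were below 1 CPM and 38 were at 5 CPM or more. A gene that is low in WT could pass the filter on low counts through the null lines alone, so the shares above depend in part on that filter. Among genes with at least 5 CPM in WT, a limit that a rise in MP8 cannot help a gene to pass, the share at least 2-fold higher was 1.31%, 1.25%, 1.52%, 4.43% and 18.9% (38 of 201) from the shortest to the longest spans. The share over 300 kb was thus less than 38.8% under this limit, and still above the shares of the shorter spans. Without this limit, among genes with transcripts of 2 to 4 kb, the share over 300 kb was 38.8% (45 of 116). That value depends on the filter in the same way.

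**Figure D2:**
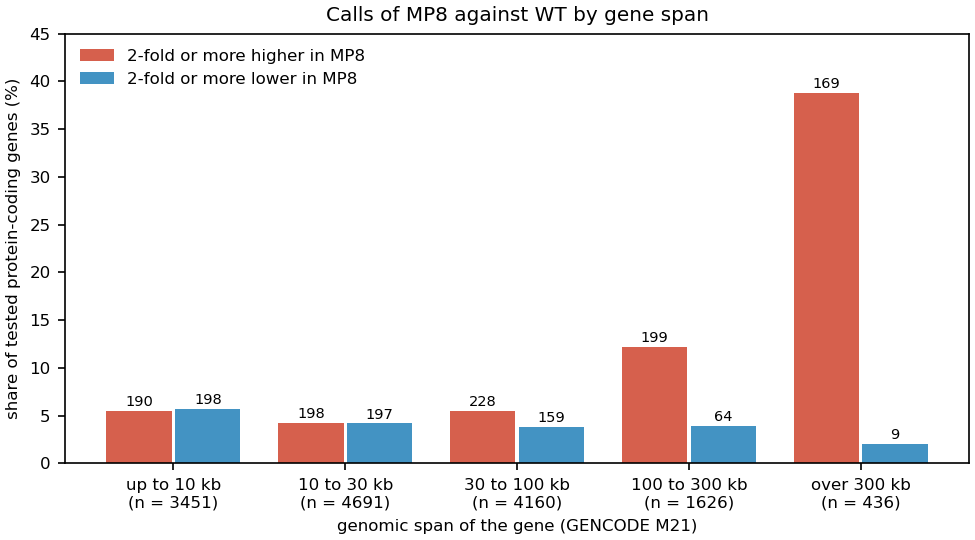
Percent of tested protein-coding genes at least 2-fold higher or lower in MP8 against WT, by genomic span; the number on each bar is its count of genes. The higher share is 38.8% over 300 kb, against 4.22 to 5.48% for spans between 10 and 100 kb.

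Long genes that rose included a kinase, adhesion molecules and synaptic scaffolds. Prkg1, a cGMP-dependent protein kinase, had 72.6, 75.9 and 78.5 CPM in MP8 and 2.62, 3.37 and 2.49 CPM in WT (4.74 ± 0.08). Pcdh15, a protocadherin of hair cell tip links, had 156, 170 and 161 CPM in MP8 and 9.69, 6.94 and 8.33 CPM in WT (4.28 ± 0.07). Lrrc7, a postsynaptic scaffold protein, had 142, 145 and 152 CPM in MP8 and 6.25, 6.25 and 8.37 CPM in WT (4.39 ± 0.08). No MP8 library came near a WT library in the 3 genes.

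Pkhd1, the gene of polycystic kidney and hepatic disease, had 129, 133 and 131 CPM in MP8 and 8.36, 7.83 and 7.67 CPM in WT (4.04 ± 0.06). Adgrl3, the latrophilin 3 adhesion receptor, had 138, 139 and 144 CPM in MP8 and 8.45, 8.72 and 8.47 CPM in WT (4.03 ± 0.08). Nrxn3, the presynaptic neurexin 3, had 20.1, 21.9 and 20.1 CPM in MP8 and 0.689, 1.09 and 0.941 CPM in WT (4.51 ± 0.16). Genotypes were again fully separated. Dlg2, a synaptic scaffold (4.19), Esr1, the oestrogen receptor (4.03), and Nalf1, an auxiliary factor of a sodium leak channel (4.83), rose as well. The named long genes include some picked after their values were seen.

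Long genes also fell or were not called. Among the 436 long genes, a further 76 rose by less than 2-fold, 77 fell, 9 of them by 2-fold or more, and 114 were not called. Mcc, mutated in colorectal cancers and a negative regulator of proliferation, had 21, 19.9 and 21.5 CPM in MP8 and 88.0, 97.3 and 95.3 CPM in WT (-2.17 ± 0.06). Auts2, linked to neurodevelopmental disorders and to Polycomb complexes, averaged 28.2 ± 1.74 CPM in MP8 and 36.6 ± 2.05 CPM in WT (-0.37 ± 0.06). Dmd, the dystrophin gene, rose more modestly, with 108 ± 3.94 CPM in MP8 and 49.2 ± 1.73 CPM in WT (1.13 ± 0.05). Macf1, a microtubule and actin cross-linker, had 725 ± 22.8 CPM in MP8 and 690 ± 77.1 CPM in WT and was not called (adjusted p = 0.394).

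**Figure D3:**
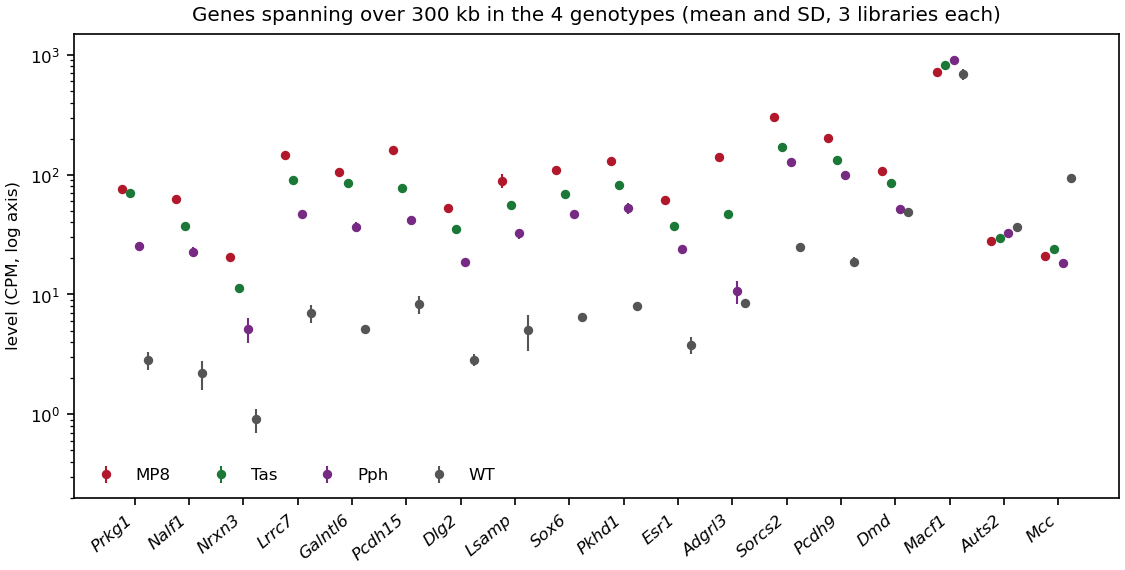
Mean CPM ± SD (3 libraries each, log axis) of 18 genes with long spans in MP8, Tas, Pph and WT. Prkg1 averages 75.7 CPM in MP8, 70.1 in Tas, 25.5 in Pph and 2.83 in WT; Mcc runs the other way, with 20.8 in MP8 and 93.5 in WT.

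The deposited counts and TPM together give the transcript length that the authors' quantification assigned to a gene's reads, since TPM divides by length. Expressed relative to the gene's deposited length, with the median tested protein-coding gene set to 100%, the 169 long genes that rose had a median of 39.8% in MP8 and 45% in WT. The other 267 long genes had 93.2% in MP8 and 94.2% in WT. The value was below 50% for 59.2% of the risen long genes in MP8 and 56.2% of them in WT, against 17.6% and 15% of the other long genes. For Pcdh15 it was 9.63% in MP8 and 7.96% in WT, for Pkhd1 14% in MP8 and 14.1% in WT, and for Nrxn3 13% in MP8 and 12.5% in WT. Of the 169 genes, 88 were below 50% in both genotypes, 12 in MP8 alone and 7 in WT alone. The other 62 were at 50% or more in both, among them Lrrc7 (79.3% in MP8, 82% in WT), Esr1 (75.3% in MP8, 74.4% in WT) and Adgrl3 (175% in MP8, 108% in WT). Which exons were covered is not in the files, and at the low WT counts the value is imprecise.

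Non-coding loci also had larger shares of rises, and so did genes with a single exon. Of 1283 tested genes with a single exon, 24.5% were at least 2-fold higher in MP8, against 6.38% of genes with more than 10 exons. Among protein-coding genes the shares were 12.5% and 6.23%. With at least 5 CPM in WT, 7.38% (11 of 149) of protein-coding genes with 1 exon were at least 2-fold higher, against 2.11% with 2 exons, 2.45% with 3 to 5 and 2.04% with more than 10. By annotated class, 37% of 497 lincRNAs, 33.6% of 453 processed pseudogenes, 35.4% of 96 unprocessed pseudogenes, 27.5% of 353 unreviewed transcript loci (TEC) and 22% of 350 antisense genes were at least 2-fold higher, against 6.85% of protein-coding genes. Here too, loci that are low in WT could pass the filter through the null lines alone. With at least 5 CPM in WT the shares were 15.8% of 114 lincRNAs, 17.5% of 103 processed pseudogenes, 15.8% of 38 unprocessed pseudogenes, 31.2% of 16 TEC loci and 42.9% of 35 antisense genes, against 2.03% of protein-coding genes. Over all tested genes, the shares at least 2-fold lower were 1.42 to 5.63% in these 5 classes and 4.37% in protein-coding genes. With at least 5 CPM in WT they were 8.57% of antisense genes, 6.14% of lincRNAs and 2.91% of processed pseudogenes. They were 0% of unprocessed pseudogenes and TEC loci and 2.47% of protein-coding genes. Under this limit the median log2 fold change was -0.16 for processed pseudogenes (40.8% above 0) and 0.30 to 0.53 for the other non-coding classes. Whether the counting used strand is not given in the sources used here, so reads of antisense, nested or overlapping genes cannot be told apart.

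One abundant predicted gene model was Gm43549, with 1160, 1248 and 1228 CPM in MP8 and 3.31, 3.47 and 3.9 CPM in WT (8.41 ± 0.05). It averaged 1110 CPM in Tas and 54.8 CPM in Pph. Gm50370 had 74, 73 and 97 counts in MP8 and 0 in every WT library, and was at least 88.1-fold higher against a floor of 3 counts. Both were separated from WT in all libraries.

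Retrocopies gave a mixed picture. D1Pas1, a testis-expressed retrocopy of the X-linked helicase gene Ddx3x, had 102, 103 and 99.1 CPM in MP8 and 12.4, 13.2 and 12.7 CPM in WT (2.99 ± 0.05), while its parent Ddx3x averaged 1156 ± 29.4 CPM in MP8 and 1138 ± 31.6 CPM in WT (adjusted p = 0.501). Rpl10l, a testis retrocopy of the ribosomal protein gene Rpl10, had 64.7, 57.3 and 61.0 CPM in MP8 and 8.87, 7.53 and 8.75 CPM in WT (2.86 ± 0.08). Its parent Rpl10 averaged 409 ± 6.2 CPM in MP8 and 451 ± 30.9 CPM in WT (-0.14 ± 0.04). Of 11 tested members of a list of germline retrocopies, however, these 2 rose and 4 fell (2 fell in DESeq2), and the median log2 fold change was 0.016. Reads can be split between near-identical copies, so the values of retrocopies and their parents are uncertain.

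Chemosensory receptors are kept silent outside sensory neurons, and most remained below the filter here. Of 1526 listed olfactory, vomeronasal and trace amine receptor genes 65 were tested, and 49 of these were higher in MP8, 43 of them by 2-fold or more, while 1 was lower. A member that passed the filter only through a genotype in which it was high had to differ, so these counts describe the family and do not test it. The same holds for the other lists below that have members under the filter. Or14j6 had 4.23, 4.07 and 4.49 CPM in MP8 and 0.0459, 0 and 0.0941 CPM in WT, where it had 3 counts in all (ratio 90, interval 30.4 to 439). Taar7d had 9.91, 10.8 and 9.58 CPM in MP8 and 0.276, 0.149 and 0.188 CPM in WT (5.57 ± 0.25). The 2 genes were low in every WT library and clearly expressed in each MP8 library.

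Most tested Xlr genes rose. Of 16 listed members 9 were tested, and 8 of these were higher in MP8, each by 2-fold or more, with a median log2 fold change of 4.5. The 16 together summed to only 6.02 to 6.99 CPM in WT, so tested members may have passed the filter through the null lines. Xlr3a had 42.8, 41.2 and 40 CPM in MP8 and 1.1, 0.991 and 1.13 CPM in WT (5.26 ± 0.12). Xlr3b had 51.6, 51.1 and 48.7 CPM in MP8 and 2.3, 2.23 and 2.07 CPM in WT (4.52 ± 0.09). Genotypes did not overlap in either gene, but the copies are nearly identical, so how the reads divide among them is uncertain. The X-linked Rhox homeobox genes went down instead, with 4 of 5 tested members lower. Rhox6 had 1.03 ± 0.116 CPM in MP8 and 8.43 ± 0.969 CPM in WT (-3.03 ± 0.19).

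Cadherins, which join cells through homophilic contacts, rose in most cases. Of 23 tested classical cadherins and non-clustered protocadherins, 17 were higher, 11 by 2-fold or more, and 2 lower, with a median log2 fold change of 0.99. Without any 1 of 4 libraries (MP8 replicates 1 and 2, WT replicates 1 and 2) the lower count was 1. Pcdh9, a protocadherin of the brain with a long span, had 201 ± 8.21 CPM in MP8 and 18.8 ± 1.8 CPM in WT (3.42 ± 0.06). Cdh12, a brain cadherin that also spans over 300 kb, had 23.5 ± 3.1 CPM in MP8 and 1.94 ± 0.291 CPM in WT (3.59 ± 0.13). Pcdh7 (4.81) and Cdh18 (4.22) are over 300 kb as well and rose. Of other cadherins over 300 kb, Cdh4 fell (-0.52) and Cdh13 was not called (0.10). The part of gene span in the rises of this list was not tested. Cdh2, N-cadherin, rose by 0.74 ± 0.08 on the log2 scale, and Cdh1, the E-cadherin of ES cell colonies, averaged 463 ± 17.2 CPM in MP8 and 475 ± 10.7 CPM in WT (adjusted p = 0.3).

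The clustered protocadherins, which give neurons their surface identity, had 17 of 31 tested members higher and 0 lower in edgeR, with a median of 0.62. At an unadjusted p below 0.05 and in DESeq2 0 were lower too, and without MP8 replicate 1, 1 member was lower. Pcdha6 had 10.4, 10 and 11 CPM in MP8 and 0.322, 0.793 and 0 CPM in WT. The libraries did not overlap, and the change of 4.82 became 5.96 without WT replicate 2. These genes share their constant exons, so their counts are partly an estimate of how reads divide.

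Zinc finger genes with Zfp names, many of them KRAB repressors of retroelements, had 179 of 369 tested members higher and 52 lower, with a median of 0.21 (30% and 32.2% of all tested genes, median -0.016). Changes were mostly small, since 25 members rose and 2 fell by 2-fold or more. Zfp229 had 89.7 ± 2.71 CPM in MP8 and 15.7 ± 0.28 CPM in WT (2.52 ± 0.05).

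**Figure D4:**
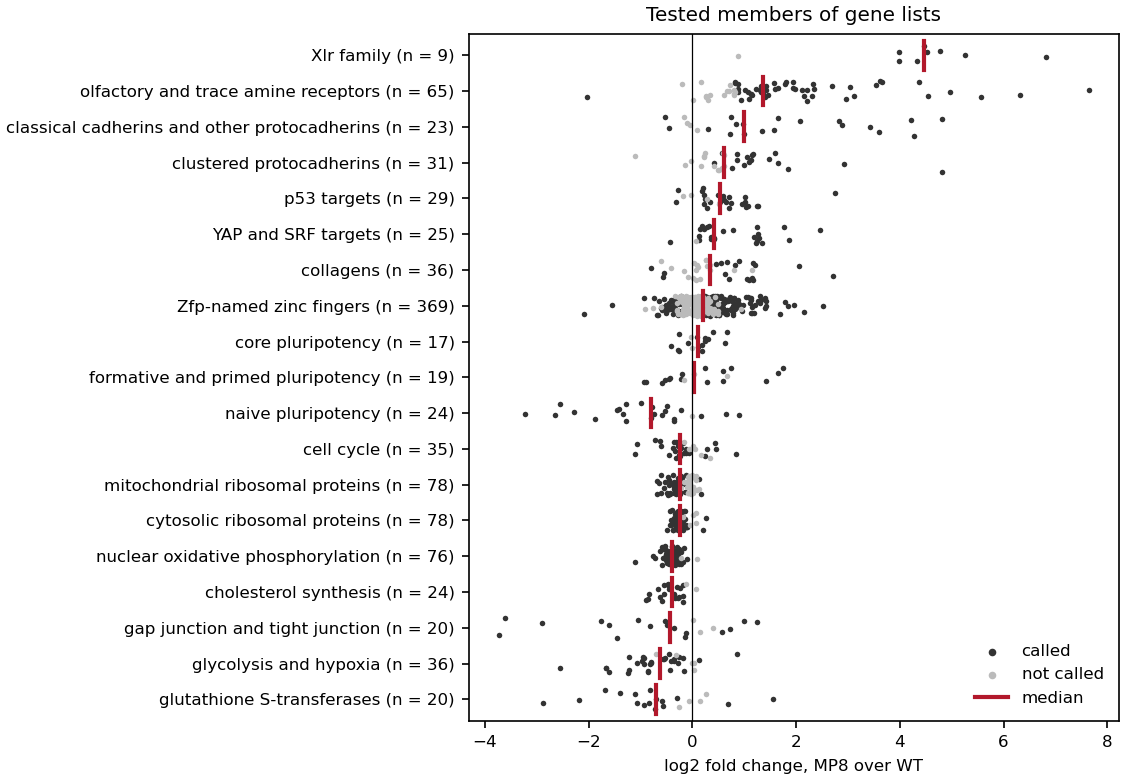
Log2 fold changes, MP8 over WT, of the tested members of 19 gene lists. Dark points are called members, grey points are not called, and red bars mark medians, which run from -0.79 for naive pluripotency to 4.5 for the Xlr family.

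Naive pluripotency genes were reduced. Of 24 tested genes 20 fell, 10 of them by 2-fold or more, and 3 rose, with a median log2 fold change of -0.79. Klf4 had 5.43, 5.5 and 5.97 CPM in MP8 and 33.3, 36.1 and 36.2 CPM in WT (-2.64 ± 0.10). Tfcp2l1, a factor that holds cells in the naive state, had 22.5, 21.3 and 21.1 CPM in MP8 and 128, 135 and 118 CPM in WT (-2.55 ± 0.05). Dppa3, the maternal factor Stella, had 6.19, 7.2 and 7.06 CPM in MP8 and 34.3, 32.5 and 31.5 CPM in WT (-2.27 ± 0.08). The MP8 values of these 3 genes lay well below all WT values.

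Esrrb, a nuclear receptor of the naive network, averaged 138 ± 1.35 CPM in MP8 and 335 ± 11.1 CPM in WT (-1.28 ± 0.03). Bmp4, which sustains self-renewal together with LIF, averaged 1.08 ± 0.201 CPM in MP8 and 10.1 ± 0.635 CPM in WT (-3.22 ± 0.17). Nanog (-0.35), Klf2 (-0.58) and Zfp42 (-0.49) fell by less. Members that rose were Nr5a2 (0.16), Tex19.1 (0.65) and Gbx2 (0.90).

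Changes of the core factors were smaller. Pou5f1 had 895, 897 and 884 CPM in MP8 and 932, 918 and 987 CPM in WT (-0.08 ± 0.03, adjusted p = 0.015). This small difference missed the threshold under 5 alternatives. The adjusted p was 0.0624 without MP8 replicate 3 and 0.0905 without WT replicate 3. It was 0.073 with the 6 MP8 and WT libraries alone, 0.0828 with a mean of at least 5 CPM required and 0.158 with library-total scaling, and the range over the alternatives was 0.0033 to 0.158. Sox2 averaged 299 ± 5.8 CPM in MP8 and 396 ± 6.64 CPM in WT (-0.41 ± 0.03). Of 17 tested core genes 10 rose and 5 fell, with a median of 0.11. Formative and primed genes were divided, with 8 of 19 higher and 8 lower. Fgf5, the classic epiblast marker, had 3.77, 2.91 and 3.6 CPM in MP8 and 1.29, 1.14 and 0.847 CPM in WT (1.65 ± 0.25), and Sall2 (1.75) and Sox3 (1.42) also rose. Otx2, which directs exit from the naive state, fell by 0.90, and the de novo DNA methyltransferase gene Dnmt3b fell by 0.43.

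Signalling lists showed single strong changes and little common direction. Of 21 tested genes of nodal, activin and BMP signalling 11 rose and 5 fell. Nodal averaged 98.1 ± 0.479 CPM in MP8 and 52.3 ± 0.928 CPM in WT (0.91 ± 0.04), its inhibitor Lefty2 rose by 0.37, and the activin subunit Inhbb averaged 0.509 ± 0.188 CPM in MP8 and 4.45 ± 0.195 CPM in WT (-3.10 ± 0.28). In the FGF and ERK list 9 of 19 rose and 5 fell, among the risen Dusp6, a phosphatase induced by ERK, with 116 ± 2.79 CPM in MP8 and 52.7 ± 0.173 CPM in WT (1.14 ± 0.04). In the LIF and STAT3 list 6 of 16 rose and 7 fell, and Socs3, a STAT3 target, fell by 0.64. In the Wnt list 5 of 20 rose and 9 fell, with Wnt3 up by 2.62 and its feedback target Notum down by 1.09.

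Targets of p53 were mostly higher, although Trp53 RNA was lower. Of 29 tested targets 23 rose, 7 of them by 2-fold or more, and 2 fell, with a median log2 fold change of 0.53. Ccng1, cyclin G1, had 447, 471 and 438 CPM in MP8 and 190, 190 and 192 CPM in WT (1.25 ± 0.03), with no overlap. Eda2r, a death-domain receptor of the TNF family, averaged 81.9 ± 3.43 CPM in MP8 and 34.3 ± 1.35 CPM in WT, a fold change of 2.39 (adjusted p = 4.44e-19). Mdm2, the ubiquitin ligase of p53, rose by 0.70, and Cdkn1a, the cell cycle inhibitor p21, rose by 0.62 (44.5 ± 2.38 CPM in MP8, 29 ± 1.59 CPM in WT). Trp53, also on the list, fell by 0.31.

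Apoptosis regulators were not mostly higher as the p53 targets were. Of 20 tested, 5 were higher and 9 lower, beside 30% and 32.2% of all tested genes. Bak1, an effector of mitochondrial permeabilisation, fell to 20.4 ± 0.755 CPM in MP8, against 51.1 ± 1.33 CPM in WT. Cell cycle genes fell more often than they rose (24 lower and 5 higher of 35, median -0.24), including Ccnd3 (-1.10) and E2f2 (-1.06), while the tumour suppressor Rb1 rose by 0.85. In the integrated stress response list 8 of 23 rose and 13 fell. Without WT replicate 2, 5 rose. Ddit3, the factor CHOP, rose to 5.02 ± 0.647 CPM in MP8, against 1.56 ± 0.322 CPM in WT, while the asparagine synthetase gene Asns fell by 0.95. Heat shock genes were divided (8 of 16 higher, 6 lower), with both inducible HSP70 genes higher, Hspa1a by 1.17 and Hspa1b by 1.02.

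Targets of YAP and of the serum response factor, which answer to cell shape and actin tension, rose almost throughout. Of 25 tested genes 23 were higher, 10 by 2-fold or more, and 1 lower, with a median of 0.42. Ccn2, a secreted matricellular protein and a standard YAP target, had 176, 175 and 181 CPM in MP8 and 49.7, 46.4 and 50.1 CPM in WT (1.86 ± 0.04). Tagln, an actin-binding protein of smooth muscle, averaged 50.1 ± 1.15 CPM in MP8 and 14.7 ± 0.156 CPM in WT (1.77 ± 0.05). Myl9 (1.28), Acta2 (1.24) and Vcl (1.25) rose as well. Actb, the cytoplasmic β-actin gene, was not called (0.07), and Tagln2 fell by 0.43.

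Matrix and junction genes moved in both directions. Of 44 listed collagens 36 were tested, and 15 rose, 8 by 2-fold or more, and 3 fell. Over all tested genes 30% rose, 9.96% by 2-fold or more, and 32.2% fell. Against Tas 23 collagens were higher in MP8 and 4 lower (median 0.62), but against Pph 6 were higher and 18 lower (median -0.6). Of 17 laminins and basement membrane genes 10 rose and 4 fell against WT. Lama3, the laminin α3 chain, averaged 173 ± 4.9 CPM in MP8 and 60.7 ± 4.5 CPM in WT (1.51 ± 0.05). Lama2, α2, averaged 7.53 ± 1.13 CPM in MP8 and 0.82 ± 0.115 CPM in WT (3.19 ± 0.22). Lama2 is one of the risen genes over 300 kb, and its implied transcript length was 11% of the deposited length in MP8 and 11.7% in WT. Of 20 tested gap and tight junction genes, 13 fell, 7 by 2-fold or more, and 4 rose. The β-connexin gene Gjb5 was among those that fell, and it averaged 0.63 ± 0.245 CPM in MP8 and 7.78 ± 0.512 CPM in WT (-3.60 ± 0.26). Gja1, connexin 43, went the other way, with 507, 515 and 504 CPM in MP8 and 245, 263 and 257 CPM in WT (0.99 ± 0.03). The tight junction gene Cldn4 fell by 0.81.

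Glycolysis and its hypoxia-linked regulators fell. Of 36 tested genes 29 were lower, 8 by 2-fold or more, and 2 higher, with a median of -0.63. Ldha, the lactate dehydrogenase subunit, had 595, 570 and 575 CPM in MP8 and 1182, 1205 and 1244 CPM in WT (-1.06 ± 0.03). The lactate exporter Slc16a3 averaged 59.1 ± 1.67 CPM in MP8 and 188 ± 2.94 CPM in WT (-1.67 ± 0.04), and the phosphofructokinase Pfkp averaged 51.7 ± 1.04 CPM in MP8 and 164 ± 5.1 CPM in WT (-1.66 ± 0.04). Slc2a3, described above, belongs to the same list. Hk2, a hexokinase, was not called (265 ± 5.19 CPM in MP8, 260 ± 8.67 CPM in WT), and Hif1a rose by 0.12.

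Cholesterol synthesis genes fell in 22 of 24 tested cases and rose in none, each by less than 2-fold, with a median of -0.39. That count of 0 rises in edgeR became 1 at an unadjusted p below 0.05, and it was also 1 in DESeq2, with RLE or library-total scaling, with a mean of at least 5 CPM required, with the 6 MP8 and WT libraries alone and without WT replicate 2. Msmo1, a sterol demethylation enzyme, averaged 33.6 ± 1.57 CPM in MP8 and 61.9 ± 2.76 CPM in WT (-0.89 ± 0.05). In fatty acid metabolism 19 of 28 genes fell and 5 rose. Cd36 was the one rise of 2-fold or more, the intracellular carrier Fabp5 fell by 1.19, and Fasn, the fatty acid synthase, was not called (0.02).

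Respiratory chain and ribosome genes fell by small amounts. Of 76 nuclear genes of oxidative phosphorylation 74 fell and 0 rose in edgeR (0 also at an unadjusted p below 0.05 and in DESeq2), with a median of -0.39 and 1 fall of 2-fold or more, that of Cox5b (43.7 ± 3.1 CPM in MP8, 94.3 ± 10.4 CPM in WT). The mitochondrially encoded mt-Co1 averaged 8741 ± 12 CPM in MP8 and 11593 ± 201 CPM in WT (-0.41 ± 0.02). Of 78 cytosolic ribosomal protein genes 71 fell and 2 rose (median -0.23), and of 78 mitochondrial ribosomal protein genes 50 fell and 2 rose (median -0.24). The count of risen mitochondrial ribosomal genes was 1 without any 1 of MP8 replicates 2 and 3 and WT replicates 1 and 2.

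These genes have short transcripts, and short transcripts were lower in general. Protein-coding genes with transcripts up to 1 kb had a median log2 fold change of -0.27 (993 genes), those of 1 to 2 kb -0.17, those of 2 to 4 kb -0.04 and those over 4 kb 0.08. The part of transcript length in the small falls was not tested. Immunoproteasome subunits stood out among 46 proteasome genes, of which 31 fell and 4 rose: Psmb10 fell by 1.31 and Psmb8 by 1.17 on the log2 scale.

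Interferon and antigen presentation genes fell in 17 of 30 cases and rose in 6, and Ifit2, an interferon-induced antiviral gene, averaged 0.568 ± 0.207 CPM in MP8 and 4.11 ± 0.489 CPM in WT (-2.84 ± 0.25). Glutathione S-transferases fell in 14 of 20 cases and rose in 2, and the near-identical copies of the Gstp group make single values such as that of Gstp2 (-2.87) uncertain. Replication-dependent histones fell in 16 of 33 tested cases and rose in 0 in edgeR, at an unadjusted p below 0.05 and in DESeq2, though 1 rose without MP8 replicate 2 or without WT replicate 2. Their mRNAs lack poly(A) tails and their copies are near-identical, and how RNA was selected for sequencing is not stated.

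Chromatin regulators moved in both directions. Of 24 Polycomb genes 9 rose and 9 fell, with the canonical PRC1 components Cbx8 (1.67) and Bmi1 (1.35) higher and the PRC2 accessory factor Phf19 lower (13.3 ± 0.642 CPM in MP8, 37.4 ± 0.534 CPM in WT). Of 14 genes of H3K9 methylation and HP1, 6 rose and 5 fell, and Wiz, a partner of the G9a and GLP methyltransferases, averaged 793 ± 21.1 CPM in MP8 and 408 ± 16.2 CPM in WT (0.96 ± 0.03). Of 19 DNA methylation and demethylation genes 6 rose and 10 fell, with the dioxygenase gene Tet2 at 31.7 ± 0.841 CPM in MP8 and 79.9 ± 7.93 CPM in WT (-1.34 ± 0.06). Genes of the NEXT complex and the RNA exosome fell in 11 of 22 cases and rose in 4, and 2 rose without MP8 replicate 2 or without WT replicate 1.

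Imprinted genes rose in 15 of 33 cases and fell in 6, with the antisense RNA Kcnq1ot1 at 19.3 ± 1.47 CPM in MP8 and 6.04 ± 1.33 CPM in WT (1.68 ± 0.11). Germline and meiosis genes fell in 16 of 33 cases and rose in 8. Zpbp, a sperm protein that binds the egg coat, was the strongest rise among them, with 18.3 ± 2.09 CPM in MP8 and 1.05 ± 0.464 CPM in WT (4.13 ± 0.18). The Xlr genes, described above, were not on this list.

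Markers of the labelled cell type and of other cell types were checked beside these results. The 10 ES cell markers were all tested, with 3 higher and 6 lower, 1 of the 6 by 2-fold or more. They summed to 3775 to 3794 CPM in MP8 and 4025 to 4177 CPM in WT. Among primitive endoderm markers 5 of 8 tested were higher and 1 lower. Gata6, a defining factor, averaged 0.976 ± 0.202 CPM in MP8 and 0.368 ± 0.161 CPM in WT. The list summed to 167 to 175 CPM in MP8 and 150 to 177 CPM in WT. Among neuroectoderm markers 5 of 6 tested were higher and 1 lower. Pax6 averaged 14.3 ± 0.481 CPM in MP8 and 5.1 ± 0.801 CPM in WT. This list summed to 311 to 317 CPM in MP8 and 270 to 272 CPM in WT.

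Of trophectoderm markers 5 of 9 tested were higher and 2 lower, and the list summed to 126 to 130 CPM in MP8 and 139 CPM in WT. Feeder fibroblast markers had 2 of 8 tested higher and 1 lower, and summed to 29.4 to 31.8 CPM in MP8 and 24.8 to 26 CPM in WT. Mesendoderm markers had 1 of 4 tested higher and 3 not called, and summed to 8.24 to 9.18 CPM in MP8 and 7.58 to 7.99 CPM in WT. Germ cell markers had 1 of 8 tested higher and 5 lower, and summed to 68.5 to 70.1 CPM in MP8 and 79.7 to 81.7 CPM in WT. Of 9 markers of the 2-cell-like state, 6 were at 0 in every MP8 library and 7 at 0 in every WT library, and the list summed to at most 0.302 CPM in MP8 and 0.0496 CPM in WT. The part of such cells in the changes above was not tested.

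MP8 also differed from both sister mutants. Against Tas 56.1% of tested genes were called, and 4662 were higher in MP8 (27.7%) and 4785 lower (28.4%), with 1030 (6.12%) and 736 (4.37%) at 2-fold or more. Against Pph 58.8% were called, and 4622 were higher (27.4%) and 5286 lower (31.4%), with 963 (5.72%) and 1186 (7.04%) at 2-fold or more. Of protein-coding genes over 300 kb, 14.9% were at least 2-fold higher in MP8 than in Tas and 2.98% lower, and 28.4% were higher than in Pph and 5.05% lower. The comparisons with Tas, Pph and WT share the MP8 libraries, so they are not independent.

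Of the 169 long genes that rose against WT, 133 were higher in MP8 than in Tas and 3 lower, and 149 were higher than in Pph and 3 lower. The fitted change was smaller against Tas than against Pph in 128 of them and larger in 41. Prkg1 differed from Tas by 0.11 on the log2 scale (adjusted p = 0.0611) and from Pph by 1.57. Pcdh15 differed from Tas by 1.08 and from Pph by 1.96. Adgrl3 averaged 140 ± 3.12 CPM in MP8, 47.3 in Tas, 10.6 in Pph and 8.55 ± 0.152 in WT, so MP8 stood above both. In the Xlr family the order was not the same. Of 9 tested members 6 were lower in MP8 than in Tas and 2 higher, with a median log2 fold change of -1.2. Against Pph 8 were higher and 0 lower, with a median of 2.4. Xlr3c averaged 62.8 CPM in MP8 and 77.1 CPM in Tas (-0.30, adjusted p = 8.04e-05) and 8.44 CPM in Pph. Of 24 tested naive pluripotency genes, 19 were lower in MP8 than in Tas and 4 higher, with a median of -0.85. Against Pph 11 were lower and 8 higher, with a median of -0.1. The naive factor Tfcp2l1 was lower in MP8 (21.7 CPM) than in Tas (76.2 CPM, -1.81) and Pph (70.1 CPM, -1.69). Klf4 did not pass the test against Tas (0.28, adjusted p = 0.0685).

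MP8 lay apart from the 3 other genotypes in many genes. At 2-fold or more against each of WT, Tas and Pph, 269 genes were higher (1.6% of those tested) and 197 lower (1.17%). The genes named next are among those with the largest such difference. Or2ak5 averaged 7.64 CPM in MP8, 0.0162 in Tas, 0.0684 in Pph and 0.031 in WT. Cmah, an enzyme of sialic acid hydroxylation, averaged 5.69 CPM in MP8, 0.6 in Tas, 0.427 in Pph and 0.475 in WT. Taar7d averaged 10.1 CPM in MP8, 0.385 in Tas, 0.466 in Pph and 0.204 in WT. Each of these was called against the 3 other genotypes. Ufsp2, a protease that matures and removes the ubiquitin-like modifier UFM1, was lower in MP8, with 2.31 CPM in MP8, 10.7 in Tas, 13.6 in Pph and 13.2 in WT. Effects of the genotype and of the cell line cannot be told apart for these genes.

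By chromosome, chromosome 16 stood out against WT. The median log2 fold change of its 492 tested genes was 0.27, and 72% of them lay above 0, while the medians of the other autosomes and X ran from -0.13 (chromosome 14) to 0.09 (chromosome 13). With a mean of at least 5 CPM the values were 0.24 and 72.5%. The median on chromosome 16 was 0.18 against Tas and 0.01 against Pph. Against Tas, chromosomes 8 and 19 had medians of -0.33 each. DNA copy number was not measured, and its part in these medians was not tested. Without the genes of chromosome 16, 4784 genes were higher and 5346 lower in MP8 against WT, and 1614 and 722 at 2-fold or more.

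**Figure D5:**
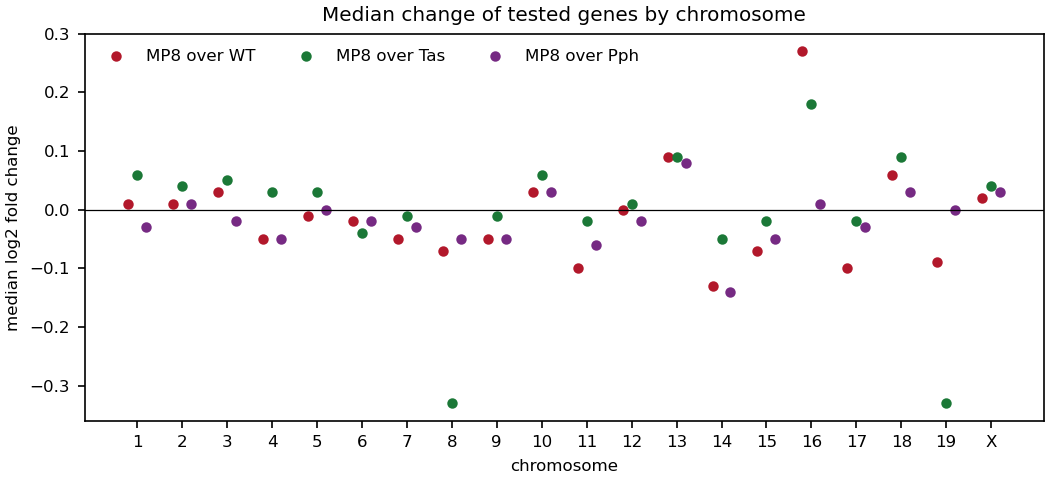
Median log2 fold change of tested genes by chromosome for MP8 over WT, MP8 over Tas and MP8 over Pph. Chromosome 16 lies at 0.27 over WT, 0.18 over Tas and 0.01 over Pph, and chromosomes 8 and 19 at -0.33 over Tas.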

How the data were processed

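Total RNA of mouse ES cells, extracted with Trizol and made into libraries with an Illumina TruSeq kit per the labels' protocols, was sequenced in 12 libraries of 4 genotypes, grouped by the genotype label. Tools named in the submitters' processing notes, without role or order, are HISAT2 2.1.0, FastQC, DESeq 1.26.0 and RSEM, with GRCm39 as genome build. Per the file headers, the authors deposited expected counts (estimated reads per gene, not normalized) for 57180 genes in 3 tables. They also deposited TPM, scaled for transcript length, and a gene length. TPM served only for the implied transcript length. WT values differed by at most 0 between tables and entered once. The authors' own fold changes and p-values were not used.

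Expected counts were rounded (32.5% of those above 0 were not whole, tolerance 1e-09). The model was fitted in R 4.3.3 by edgeR 4.0.16. It used filterByExpr by genotype, TMM scaling and 1 robust quasi-likelihood model of the 12 libraries (8 residual degrees of freedom), with Benjamini-Hochberg adjustment over 16840 genes at 0.05. DESeq2 1.42.0 was an alternative. Library totals of 17918770 to 21962079 limit the precision. A group at 0 was read as a floor of 3 counts, summed over the group, and floors and intervals cover counting error only. The fit was also tried on counts simulated from WT mean levels, the sizes of the 12 libraries and 1 spread common to all genes. Changes were set in MP8 for 67, 67 and 66 genes that were not near the floor in WT. The fit recovered 86.6% of true 1.5-fold changes, 97% of 2-fold and 100% of 4-fold ones. It made 13 false calls among 16085 genes. These rates cannot be carried over to genes low in WT, or to real data in which 62.2% of tested genes were called.

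Members and lists were chosen with earlier results of these data known. Named genes were the HUSH list, the 12 largest rises and 10 largest falls without overlap and with at least 1 CPM in a group, up to 4 called members and the most abundant uncalled member per list, the 6 largest rises and falls in CPM, 5 genes per direction that set MP8 apart, and the 3 largest rises among predicted models. Others, including long genes, were added after their values had been seen. A few of the genes so chosen are not reported here. Spans, exons and classes came from GENCODE M21 on GRCm38 (16484 tested genes matched by ID), and no coordinates of the files' build were used. Symbols came from the tables. 525 listed genes had none and 230 symbols were shared.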

Additional observations from a re-analysis of the deposited data

How the results depend on the processing

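With a mean of at least 5 CPM required, the genes at least 2-fold higher and lower in MP8 numbered 657 and 207 against WT, 302 and 239 against Tas, and 405 and 430 against Pph; fewer genes were tested (11299). The other counts over all genes stayed within 1.5 times under DESeq2, RLE or library-total scaling, no filter on low counts, the 6 MP8 and WT libraries alone, the replicate block, and each library left out in turn, where 1651 to 1740 genes were at least 2-fold higher than in WT and 722 to 788 lower. Of the calls against WT, 48.3% were higher with TMM and 52.9% with library totals. No named gene reversed, and 1 called gene, Pou5f1, missed the threshold under some alternative. Of 1366 list counts under alternatives, 59 moved by more than 1.5 times. Counts of long genes at least 2-fold higher fell under the same 5 CPM filter, to 111, and to 38 with at least 5 CPM in WT, a limit added after seeing the data.

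Replicate numbers did not pair the samples: the deviations of same-numbered MP8 and WT libraries correlated at -0.018, 0.00446 and -0.0165. With the replicate block, 4960 genes were higher and 5343 lower, 1665 and 731 at 2-fold or more, and Mphosph8 changed by -8.49. Genes under the floor of 3 counts summed over a group, 0.0514 CPM in MP8 and 0.0475 CPM in WT, cannot be ranked.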
